A study of Homo sapiens with 4 samples.

Results

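The 10 genes CD36, CD68, CD163, MSR1, MARCO, STAB1, SCARB1, SCARB2, OLR1 and LYVE1 encode scavenger receptors or receptors commonly grouped with them, and were taken by symbol from a deposited table of 60662 genes. Each symbol matched 1 entry. RNA was sequenced from U937, an established human myeloid line derived from a histiocytic lymphoma. Cells of lots 1 and 2 were kept for 72 h either without PMA or with 10 nM PMA (phorbol 12-myristate 13-acetate, an activator of protein kinase C). The labels name macrophage-like differentiation as the aim of PMA treatment, and each lot gave 1 untreated and 1 PMA library, so n = 2 per group. No genetic change was made, all libraries came from this 1 line, and no primary macrophages were included.

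Scavenger receptors bind modified lipoproteins, apoptotic cells, bacteria and serum complexes and carry them into the cell. They share this wide binding rather than a common fold, and are sorted into lettered classes by structure: MSR1 and MARCO are class A, CD36, SCARB1 and SCARB2 class B, CD68 class D, OLR1 class E, STAB1 class H and CD163 class I. Macrophages use them to clear debris and to take up lipid, and several are used as macrophage markers. LYVE1 is a hyaluronan receptor of lymphatic endothelium and of some tissue macrophages.

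Libraries held 35739833 to 54915928 counts. A library could list a gene at 0 while the other library of its group had at least 100 counts: this was so for 40 and 242 genes in untreated lots 1 and 2, and for 53 and 57 genes in PMA lots 1 and 2. A listed 0 therefore allows up to 3 counts by sampling alone (0.0474, 0.0695, 0.0920 and 0.0648 CPM in untreated lots 1 and 2 and PMA lots 1 and 2), and can also be a failed estimate. Mitochondrial genes took 3.66% (untreated) and 2.81% (PMA) of the counts of lot 1, against 8.58% and 5.99% for lot 2. All 10 myeloid identity markers checked were detected in every library. Their sum was 1894 and 2755 CPM without PMA and 16411 and 17915 CPM with it, and their median log2 fold change was 3.0. By the edgeR test described below, 5 of the 10 rose and 0 fell, against 4.29% and 2.02% of all tested genes. With DESeq2, which called 12.9% of tested genes higher, 7 of the 10 rose. Of these markers, SPI1 was at 126 to 342 CPM and CD33 at 62.3 to 72.7 CPM, neither called, while the integrin ITGB2 rose by 3.59 (adjusted p = 0.0161). Levels are CPM, in which each count is divided by its library's size after scaling with edgeR's TMM factors, and changes are log2 fold changes of PMA over untreated with their standard error. A gene was called higher or lower when its p from edgeR's quasi-likelihood test, adjusted by the Benjamini-Hochberg method over the 16451 genes tested, was under 0.05.

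With PMA, 4 of the 10 scavenger receptors rose and 0 fell: OLR1, CD163, CD68 and SCARB2. Among all tested genes 4.29% rose and 2.02% fell, 6.30% in either direction. With DESeq2, which called 12.9% of tested genes higher and 10.2% lower (23.2% in all), 5 of the receptors rose. With limma-voom, which called 6.98% higher and 3.87% lower (10.9% in all), 4 rose, with CD36 in place of CD163. A fit blocked by lot called 3.59% higher and 1.48% lower (5.08% in all), and OLR1, CD163, CD68 and SCARB2 rose. CD36 was higher in both lots and missed the threshold, SCARB1 was near its untreated level, MARCO and STAB1 were low and uneven, and MSR1 and LYVE1 were listed at 0 in every library. The filter on low counts kept 8 of the 10 genes, and OLR1 and CD163 passed it through the PMA group alone. The summed level of the 10 genes was 291 and 356 CPM in untreated lots 1 and 2 and 1966 and 1335 CPM in the PMA libraries. Since these are bulk samples, more cells with a transcript cannot be told apart from more RNA per cell.

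**Figure D1:**
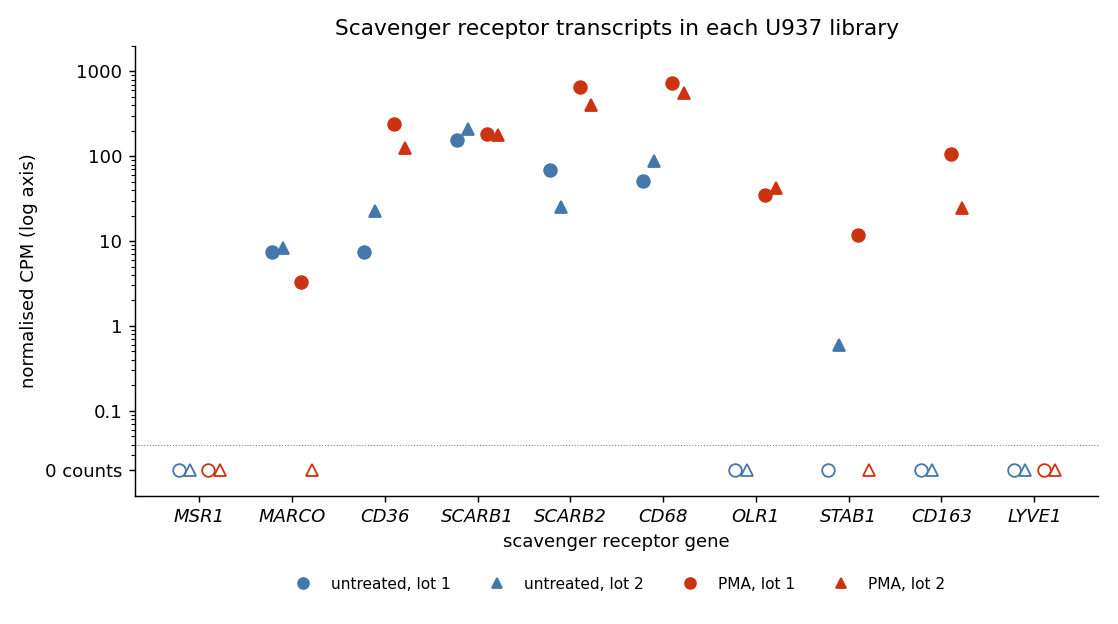
Normalised CPM (log axis) of the 10 scavenger receptors in each of the 4 libraries; blue is untreated, red is PMA, circles are lot 1 and triangles lot 2, and open symbols at the bottom are counts of 0. OLR1 and CD163 appear only in the PMA libraries, SCARB1 stays between 156 and 210.5 CPM, and MSR1 and LYVE1 are at 0 throughout.

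OLR1 encodes the lectin-like receptor for oxidised low-density lipoprotein, a class E receptor (ENSG00000173391.9). It had 0 counts in both untreated libraries and 1141 and 1982 counts with PMA, which is 35.0 and 42.8 CPM in lots 1 and 2. Both PMA libraries lay above both untreated ones, as in 31.0% of tested genes. OLR1 passed the filter on low counts through the PMA group alone, so its test depends on its level with PMA. The mean rose to 38.9 ± 5.55 CPM (SD, n = 2), at least 666-fold higher when each untreated library is set to 3 counts (adjusted p = 0.0189). Within the lots the bounds were at least 738-fold and at least 617-fold higher. OLR1 passed the test in each of the 13 alternatives (adjusted p from 1.87e-16 to 0.0341).

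CD163 encodes the class I receptor that takes up complexes of haemoglobin with haptoglobin (ENSG00000177575.12). It also had 0 counts in both untreated libraries, against 3424 and 1132 counts with PMA, or 105 and 24.5 CPM in lots 1 and 2. The groups did not overlap, as in the 31.0% of tested genes with both PMA libraries above both untreated ones. CD163 also passed the filter through the PMA group alone. The PMA libraries differed from each other more than they did for OLR1. The mean rose to 64.7 ± 56.9 CPM (SD, n = 2), at least 1107-fold higher (adjusted p = 0.0310). By lot, the bounds were at least 2213-fold and at least 352-fold. The call was lost with limma-voom (adjusted p = 0.0552) and kept in the other 12 alternatives, with 1.46e-15 as the lowest value. CD163L1, a related gene whose annotated span overlaps that of CD163 on the same strand, was at 7.87 and 10.5 CPM without PMA, against 7.88 and 6.98 CPM with it (adjusted p = 0.745).

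CD68 encodes a heavily glycosylated protein of late endosomes and lysosomes, the class D receptor and a relative of the LAMP proteins (ENSG00000129226.14). It was at 51.2 and 89.0 CPM in untreated lots 1 and 2 and at 740.1 and 560.1 CPM in the PMA libraries. Both PMA libraries lay above both untreated ones, as in 31.0% of tested genes. CD68 rose by 3.21 ± 0.43 on the log2 scale (adjusted p = 0.0280), which was 14.5-fold in lot 1 and 6.30-fold in lot 2. It passed the test in each of the 13 alternatives (adjusted p from 3.64e-10 to 0.0419). The entry AC016876.3 overlaps CD68 on the same strand. Its level was 17.5 and 56.2 CPM without PMA, against 35.7 and 22.5 CPM with it (adjusted p = 0.792). How reads were divided between CD68 and AC016876.3 is not known. The translation factor gene EIF4A1 lies close by on the same strand. It was at 635 and 637 CPM without PMA, against 538 and 460.5 CPM with it (adjusted p = 0.495).

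SCARB2 encodes a class B protein of the lysosomal membrane (ENSG00000138760.10). It was at 69.5 and 25.1 CPM in untreated lots 1 and 2 and at 649 and 405 CPM in the PMA libraries. The untreated lots differed from each other, and both stayed below the PMA libraries, as in 31.0% of tested genes. SCARB2 rose by 3.48 ± 0.63 on the log2 scale (adjusted p = 0.0455), 9.34-fold in lot 1 and 16.1-fold in lot 2. Without PMA replicate 1 the call was lost (adjusted p = 0.0641), against 9.87e-08 at the lowest over the alternatives.

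CD36 encodes the class B fatty acid transporter and receptor for oxidised lipoprotein and thrombospondin (ENSG00000135218.19). It was at 7.42 and 22.5 CPM in untreated lots 1 and 2 and at 239.5 and 126 CPM in the PMA libraries. Both PMA libraries lay above both untreated ones, as in 31.0% of tested genes. The lots differed in size: the level with PMA was 32.3 times the untreated one in lot 1 and 5.59 times in lot 2. The log2 fold change was 3.61 ± 0.71 and did not pass the test (adjusted p = 0.0523). It passed in 7 of 13 alternatives, among them DESeq2 (adjusted p = 2.20e-06), limma-voom (0.0237) and the fits without untreated replicate 1 (0.0344), untreated replicate 2 (0.0266) and PMA replicate 2 (0.0394). It did not pass when blocked by lot (0.0758) or without PMA replicate 1 (0.101). CD36 is also a platelet glycoprotein, and in the list of 10 megakaryocyte and platelet markers the summed level was 1.33 and 5.14 CPM without PMA and 1777 and 571 CPM with it. Nearly all of that was PPBP, a platelet chemokine that monocytes can also express, at 1776 and 569 CPM with PMA. GP9, GP1BB, GP6 and ITGB3 were at 0 in all 4 libraries, and ITGA2B was at 0 in both PMA libraries. Of the 10 markers 2 were tested and 0 were called, also 0 when blocked by lot. DESeq2 and limma-voom each called 2 higher.

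**Figure D2:**
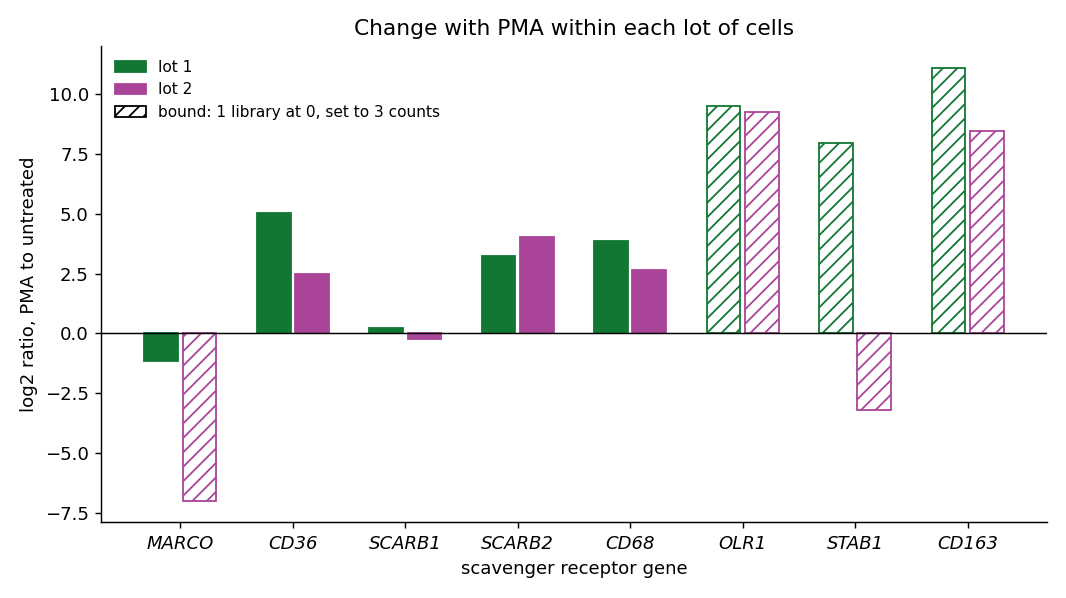
Log2 ratio of PMA to untreated CPM within lot 1 (green) and lot 2 (purple) for the 8 scavenger receptors with any count; hatched bars are bounds, with the library at 0 set to 3 counts. CD36, SCARB2, CD68, OLR1 and CD163 are above 0 in both lots, SCARB1 stays near 0, and STAB1 points in opposite directions in the lots.

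SCARB1, the class B receptor for high-density lipoprotein that transfers cholesterol esters (ENSG00000073060.16), was at 156 and 210.5 CPM in untreated lots 1 and 2 and at 183 and 177 CPM with PMA. The PMA libraries lay between the untreated ones. The log2 fold change was −0.03 ± 0.31 (adjusted p = 0.968), and within the lots the level with PMA was 1.17 and 0.841 times the untreated one. Over the alternatives the log2 fold change ran from −0.29 to 0.21, so no direction was established. The class B genes thus had different values under the same treatment, with log2 fold changes of 3.61 ± 0.71 for CD36, 3.48 ± 0.63 for SCARB2 and −0.03 ± 0.31 for SCARB1. The difference between them was not tested.

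MARCO, a class A receptor with a collagen-like stalk that binds bacteria and particles (ENSG00000019169.10), had 467 and 355 counts in the untreated libraries and 107 and 0 counts with PMA. These are 7.38 and 8.22 CPM without PMA, and 3.28 CPM and 0 with it. Both PMA libraries lay below both untreated ones, as in 29.4% of tested genes, and the PMA libraries differed widely from each other. The level was 2.25-fold lower in lot 1 and at least 127-fold lower in lot 2. The log2 fold change of −2.26 ± 1.97 did not pass the test (adjusted p = 0.535). Without PMA replicate 1, which leaves the PMA library at 0, MARCO was called lower (adjusted p = 0.0162), and the highest value over the alternatives was 0.679.

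STAB1, the class H receptor that clears matrix proteins and apoptotic cells (ENSG00000010327.10), had 0 and 26 counts in untreated lots 1 and 2 and 388 and 0 counts with PMA. The PMA library of lot 1 was at 11.9 CPM (95% exact Poisson interval 10.7 to 13.1, counting error only), and the untreated library of lot 2 at 0.602 CPM (0.393 to 0.882). The libraries therefore went in opposite directions in the lots, at least 251-fold higher with PMA in lot 1 and at least 9.29-fold lower in lot 2. No difference between the groups passed the test (log2 fold change 4.32 ± 3.09, adjusted p = 0.449). NT5DC2, which overlaps STAB1 on the opposite strand, was at 37.3 and 124 CPM without PMA, against 104 and 62.1 CPM with it. Among tested genes with at least 100 counts in a PMA library, 77 of 12034 were at 0 in the other PMA library, as STAB1 and MARCO were.

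MSR1, the class A receptor for acetylated lipoprotein that is often used as a macrophage marker (ENSG00000038945.15), had 0 counts in all 4 libraries. LYVE1 (ENSG00000133800.9) also had 0 counts in all 4. Counts of 0 allow up to 0.0920 CPM in the shallowest library, PMA lot 1, and neither gene was tested. Of 12 lymphatic and sinusoidal endothelial markers, PROX1, FLT4, CCL21, CDH5, KDR and TEK were likewise at 0 in every library. VWF and PECAM1, which are endothelial genes also found in platelets and, for PECAM1, in leukocytes, rose (324 ± 242 CPM from 0, adjusted p = 0.0236, and 1696 ± 332 from 54.1 ± 11.3 CPM, adjusted p = 0.0161). PDPN, a lymphatic marker that macrophages can also express, rose from 0 to 2.48 and 2.05 CPM (adjusted p = 0.0495), a call that was lost in 5 of 12 alternatives. VWF and PDPN passed the filter on low counts through the PMA group alone.

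Levels of different genes were set side by side per kilobase of the longest annotated transcript. Without PMA, CD68 and SCARB1 were highest, at 37.3 ± 14.2 and 33.1 ± 7.0 CPM per kilobase, and their libraries overlapped. SCARB2 followed at 8.13 ± 5.39, MARCO at 4.25 ± 0.323 and CD36 at 2.42 ± 1.73 CPM per kilobase. SCARB2 overlapped with MARCO, while SCARB1 was above SCARB2 and MARCO above CD36 in every library. With PMA the order was CD68 (346 ± 67.8 CPM per kilobase), SCARB2 (90.6 ± 29.6), SCARB1 (32.5 ± 0.711), CD36 (29.6 ± 13.0), OLR1 (15.8 ± 2.26) and CD163 (12.2 ± 10.7), with MARCO and STAB1 each at 1.78 CPM per kilobase or below. CD68, SCARB2 and SCARB1 did not overlap with each other, whereas SCARB1 overlapped with CD36 and OLR1 with CD163.

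As a share of the summed CPM per kilobase of the 10 genes, CD68 took 37.5% and 48.4% in untreated lots 1 and 2 and 64.1% and 67.4% with PMA. The share of SCARB1 was 38.8% and 38.9% without PMA and 5.37% and 7.24% with it. SCARB2 took 16.5% and 4.41% without PMA and 18.1% and 15.7% with it. CD36 took 1.65% and 3.72% without PMA and 6.31% and 4.6% with it, above SCARB1 in PMA lot 1 and below it in PMA lot 2. In the PMA libraries CD68 took most of the sum, whereas CD68 and SCARB1 together took most of it without PMA. These shares fix only the make-up of the mRNA of these genes and have no test.

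**Figure D3:**
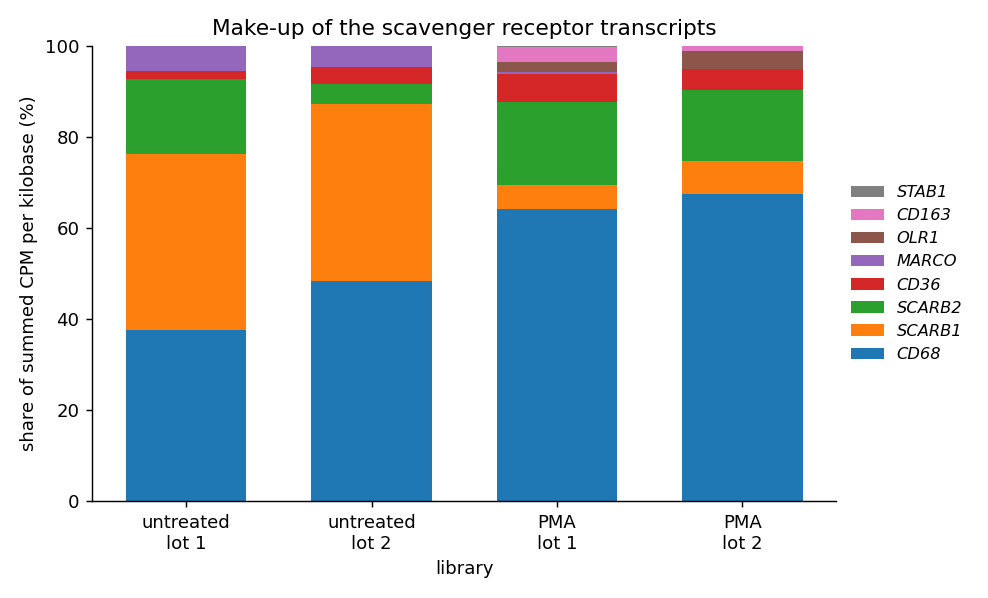
Share of the summed CPM per kilobase (percent) taken by each scavenger receptor in the 4 libraries; colours stand for genes. CD68 grows from 37.5% and 48.4% to 64.1% and 67.4%, while SCARB1 shrinks from 38.8% and 38.9% to 5.37% and 7.24%.

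Upstream sequence from RefSeq (GRCh38.p14) was used for CD36, CD68, CD163, MARCO, STAB1 and SCARB2, which are 6 of the 10 genes, with 6 start sites for CD36. The other genes were not analysed here. The 250 bases upstream of each start were searched on both strands for 6 motifs: AP-1 (TGAGTCA), PU.1 (GAGGAA), the E-box of MiT/TFE factors (CACGTG), C/EBP (TTGCNNAA), EGR (GCGNGGGCG) and the TATA box (TATAAA). These motifs were present in 4.20%, 23.6%, 6.34%, 9.05%, 8.41% and 10.7% of all 35116 windows in the table, in the same order. The windows of CD68, CD163 and SCARB2 are shown because these genes rose and have 1 start site each, with motif matches in capitals, 5′ to 3′ on the strand of the gene; no matches overlap.
CD68, chr17:7579388-7579637, plus strand: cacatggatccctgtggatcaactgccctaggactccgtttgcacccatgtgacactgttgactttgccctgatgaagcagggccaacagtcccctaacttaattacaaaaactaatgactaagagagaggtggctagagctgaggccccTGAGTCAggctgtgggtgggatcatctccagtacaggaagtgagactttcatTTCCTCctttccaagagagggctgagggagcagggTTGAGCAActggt
CD163, chr12:7503778-7504027, minus strand: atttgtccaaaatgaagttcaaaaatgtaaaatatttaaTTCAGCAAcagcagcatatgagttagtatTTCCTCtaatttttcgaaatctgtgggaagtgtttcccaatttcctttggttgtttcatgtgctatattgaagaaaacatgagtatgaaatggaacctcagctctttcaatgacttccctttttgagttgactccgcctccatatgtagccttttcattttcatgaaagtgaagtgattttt
SCARB2, chr4:76213825-76214074, minus strand: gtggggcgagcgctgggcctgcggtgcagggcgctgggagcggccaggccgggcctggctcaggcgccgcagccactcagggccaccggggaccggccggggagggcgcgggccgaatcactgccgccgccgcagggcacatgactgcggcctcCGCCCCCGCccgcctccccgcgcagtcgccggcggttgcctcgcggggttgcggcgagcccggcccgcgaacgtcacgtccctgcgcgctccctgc
The CD68 window held an AP-1 match from 100 to 94 bases upstream of the start, a PU.1 match from 48 to 43 and a C/EBP match from 13 to 6. AP-1 and PU.1 matches together were present in 1.04% of all windows, and no other combination of motifs was counted. The CD163 window held a C/EBP match from 211 to 204 and a PU.1 match from 182 to 177 bases upstream. The SCARB2 window held an EGR match from 96 to 88 and none of the other motifs. The STAB1 window had a PU.1 match, the MARCO window no match, and of the 6 CD36 windows 3 had a PU.1 match, 1 an AP-1 match, 2 a TATA box match and 2 no match. These are matches of letters in a short window and do not show binding.

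In the authors' deposited table, 2.22% of the 60662 genes were called, with 1.48% of all genes called higher under PMA, and CD36, CD68, CD163, SCARB2 and OLR1 were among them. The 60662 genes include 33746 at 0 in all 4 libraries. These shares are thus over a wider set than those over the 16451 genes tested with edgeR, and are lower for that reason. The log2 ratio of PMA to untreated in the authors' deposited table was 3.60 for CD36 (q = 0.000655), 3.20 for CD68 (q = 9.05e-05) and 3.46 for SCARB2 (q = 0.000202). SCARB1, MARCO and STAB1 had log2 ratios of −0.04, −2.28 and 4.28 in the authors' deposited table, each with a q of 1. CD36 is the member on which the authors' call and the edgeR result above differ.

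**Figure D4:**
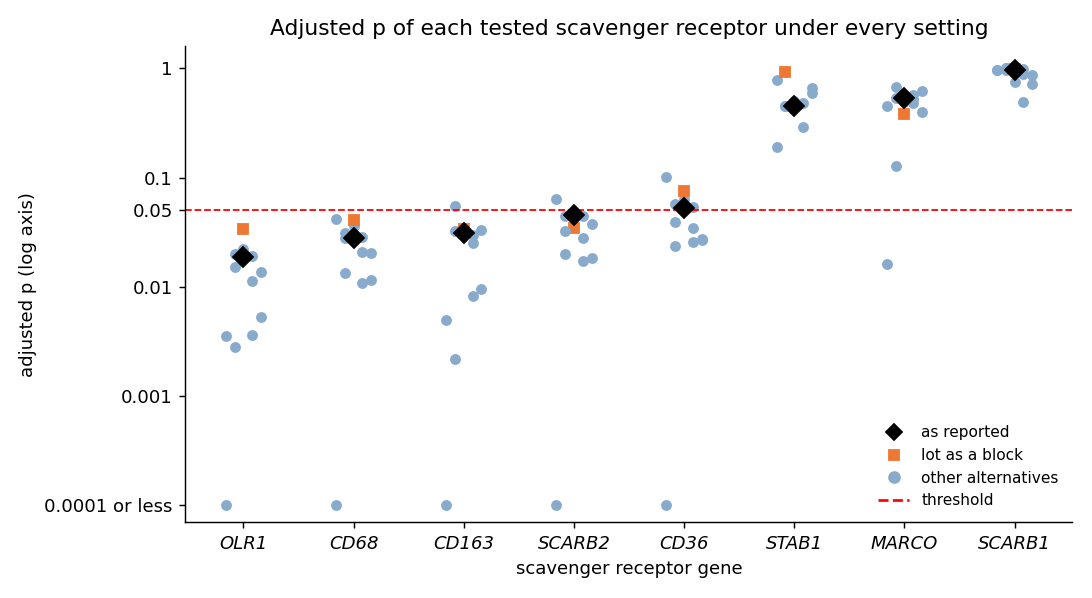
Adjusted p (log axis) of the 8 tested scavenger receptors as reported (black diamonds), when blocked by lot (orange squares) and under the other alternatives (blue circles); the dashed line is the threshold of 0.05. OLR1 and CD68 stay below the line in every setting, CD163 and SCARB2 cross it in 1 setting each, CD36 lies on both sides, and SCARB1 and STAB1 stay above it.

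The genes that work with scavenger receptors were read from 8 lists of relatives, ligands, adaptors, cargo handling and transcription factors, of which 107 genes were tested. Of these 107 genes, 21 rose and 1 fell, against 4.29% and 2.02% of all tested genes, with a median log2 fold change of 1.66 against 0.00 for all tested genes. Without untreated replicate 1, a fit that called 10.5% of its tested genes higher, 50 rose, and with DESeq2, where 12.9% of all tested genes were called higher, 55 rose. The fits without untreated replicate 2, PMA replicate 1 and PMA replicate 2 called 4.94%, 2.54% and 2.35% of their tested genes higher, and the counts below under a left-out library are to be read against these shares. Counts in the lists below come from the same fit.

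Of 24 other scavenger receptor family members, 15 were tested, 3 rose and 0 fell, with a median of 1.92. With DESeq2 7 rose, and when blocked by lot 3 did. CLEC7A, the beta-glucan receptor, rose from 0 to 17.6 ± 2.37 CPM, at least 300-fold higher (adjusted p = 0.0224). It passed the filter on low counts through the PMA group alone. CXCL16, a membrane-bound chemokine that also binds oxidised lipoprotein, rose from 8.78 ± 2.49 to 139 ± 29.9 CPM (adjusted p = 0.0229), and the hyaluronan receptor CD44 from 189.7 ± 77.4 to 1734 ± 305 CPM (adjusted p = 0.0281). MRC1, the mannose receptor, was one of 9 family members at 0 in every library, as were SCARA3 and SCARA5 of class A.

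Among 11 tested ligands and cargo genes, 2 rose and 0 fell (median 1.90): VIM, an intermediate filament protein, from 256 ± 12.3 to 4040.4 ± 777 CPM (adjusted p = 0.0166), and ANXA5, the phosphatidylserine-binding annexin, by 1.90 ± 0.31 (adjusted p = 0.0379). The call of ANXA5 was lost when blocked by lot (0.0501), with upper-quartile factors (0.0526) and with PMA replicate 1 or 2 left out (0.189 and 0.206). With DESeq2 5 genes of this list rose, and when blocked by lot 1 did. Of 19 tested adaptors, co-receptors and sheddases, 4 rose and 0 fell (median 1.55). With DESeq2 10 of them rose, and when blocked by lot 3 did. The Toll-like receptor TLR2, which works with CD36, rose from 6.87 ± 3.23 to 176 ± 59.5 CPM (adjusted p = 0.0253), and its partner TLR6 from 0.0949 and 0 to 14.5 and 9.47 CPM (adjusted p = 0.0414). TLR6 passed the filter on low counts through the PMA group alone. The kinase SRC rose by 3.88 ± 0.44 (adjusted p = 0.0244) and the syndecan SDC4 by 2.62 ± 0.40 (adjusted p = 0.0349, and 0.0503 when blocked by lot, 0.151 and 0.0993 with PMA replicate 1 or 2 left out). The sheddase ADAM10 was at 138 ± 77.4 and 451 ± 99.2 CPM (adjusted p = 0.104).

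CD68 and SCARB2 belong to the lysosomal membrane, and of 9 tested relatives and cargo genes 1 rose and 0 fell (median 1.77). This was the cholesterol exporter NPC1, from 183 ± 20.5 to 819 ± 79.0 CPM (adjusted p = 0.0292, and 0.110 and 0.0837 with PMA replicate 1 or 2 left out). The mannose 6-phosphate receptor IGF2R was at 255 ± 114 and 1301 ± 409 CPM (adjusted p = 0.0537, and 0.0374 when blocked by lot). With the block 2 rose and 1 fell. Leaving out untreated replicates 1 and 2 in turn gave 6 and 3 that rose, leaving out either PMA library gave 0, and 1 fell in each of these fits. LAMP5, a LAMP family relative named here after its values were seen, was at 379 and 258 CPM without PMA, against 1.07 CPM and 0 with it (adjusted p = 0.0501, under 0.05 in 12 of 13 alternatives).

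Haem and iron genes act after CD163 takes up haemoglobin, and of 13 tested 2 rose and 0 fell (median 1.28). FTH1, the ferritin heavy chain, rose from 487 ± 41.1 to 26519 ± 1002 CPM (adjusted p = 0.0148), a gene with many processed copies, and the phagosomal metal transporter SLC11A1 from 1.42 ± 0.578 to 52 ± 3.38 CPM (adjusted p = 0.0224). FTL, the ferritin light chain, was at 13339 ± 2078 and 32320 ± 8272 CPM (adjusted p = 0.0712). With DESeq2, 6 of these genes rose, and when blocked by lot 2 did. Of 11 tested cholesterol ester genes 1 rose and 0 fell (median 2.03). The efflux pump ABCA1 went from 0 to 95.4 CPM (lot 1) and 15.7 CPM (lot 2), at least 951-fold higher (adjusted p = 0.0385, and 0.0798 with limma-voom). It passed the filter through the PMA group alone. When blocked by lot 3 of the cholesterol ester genes rose, against 7 with DESeq2 and 2 with limma-voom. Of 9 tested hyaluronan genes, CD44 rose and HMMR, a hyaluronan-binding protein that also acts at the mitotic spindle, fell from 50.6 ± 9.04 to 2.38 ± 0.456 CPM (adjusted p = 0.0224, and 0.0645 without PMA replicate 2). The median of that list was 1.54. With DESeq2 2 rose and 1 fell, and when blocked by lot 1 rose and 1 fell.

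Of 23 tested transcription factors reported to act on scavenger receptor genes, 8 rose and 0 fell (median 1.95). The lipid-sensing receptor PPARD rose from 24.1 ± 0.248 to 255 ± 14.1 CPM (adjusted p = 0.0202) and the AP-1 subunit FOSL2 by 2.80 ± 0.33 (adjusted p = 0.0253). STAT6, which signals for interleukin 4, rose by 2.05 ± 0.29 (adjusted p = 0.0310). JUN, another AP-1 subunit, rose from 17 and 56.4 to 452 and 735 CPM (adjusted p = 0.0440, and 0.0553 with upper-quartile factors). Without PMA replicate 2, 3 of the factors rose, and the adjusted p was 0.0712 for FOSL2, 0.162 for STAT6 and 0.0506 for JUN. Without PMA replicate 1 it was 0.0601 for FOSL2 and 0.146 for STAT6, and without untreated replicate 1, where 10.5% of all tested genes were called higher, 13 factors rose.

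**Figure D5:**
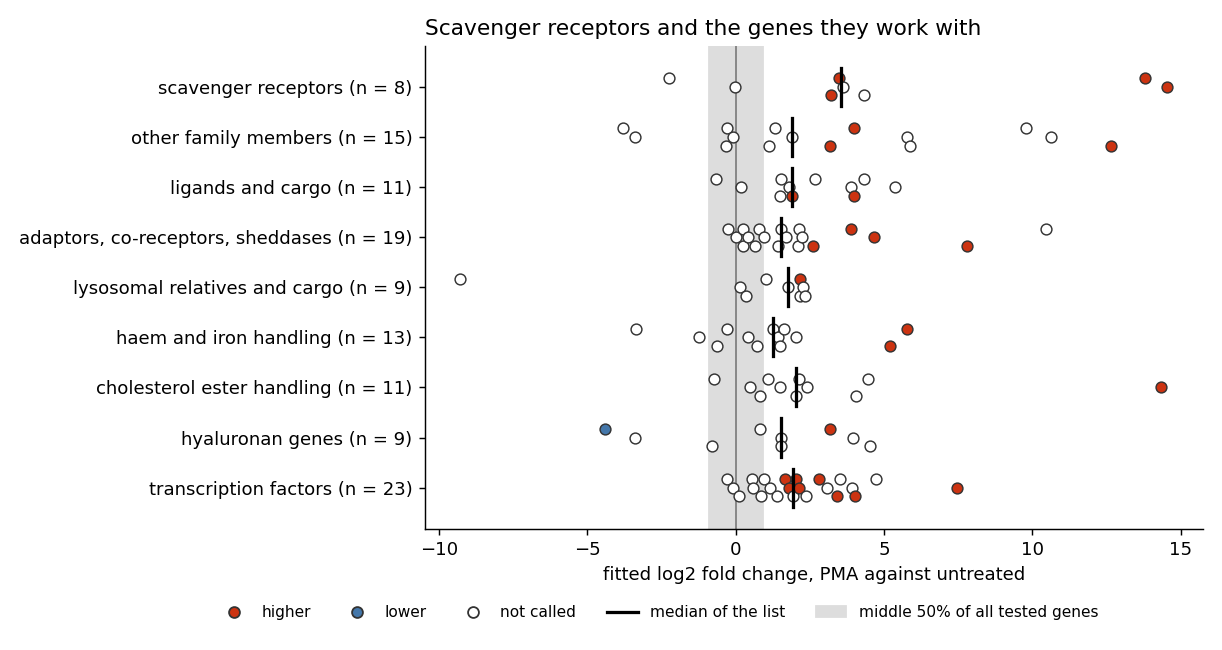
Fitted log2 fold change of PMA against untreated for the tested members of each list; red points rose, the blue point fell, open points were not called, black bars are list medians and the grey band holds the middle 50% of all tested genes. The medians of the lists of partners lie between 1.28 and 2.03; values above 9 belong to genes at 0 in both untreated libraries, for which the fitted value is no bound.

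Summed over 12 genes, the endothelial markers, mostly PECAM1, went from 66.4 and 48.5 CPM to 1618 and 2431 CPM with PMA. Of these markers 6 were tested and 3 were called higher, against 4.29% of all tested genes. The platelet markers given above reached 1777 CPM, with 0 called. Of 10 adipocyte and fibroblast markers 8 were at 0 in every library and the summed level was at most 1.01 CPM. Of 10 erythroid markers 8 were at 0 in every library, including the haemoglobin genes HBA1, HBA2 and HBB that encode part of the cargo of CD163. CD3D, CD3E, CD3G, CD8A and MS4A1 were at 0 in every library, and the sum of 12 T, B and NK cell markers, mostly NKG7, was 207 and 410.3 CPM without PMA and 92.6 and 145 CPM with it. Dendritic cell markers summed to 1.77 CPM and 0 without PMA and to 12.4 and 22.9 CPM with it. Of these 10 markers 2 were tested, and both passed the filter on low counts through the PMA group alone. These were XCR1 (adjusted p = 0.0361, and 0.0656 when blocked by lot) and the lectin CLEC10A (adjusted p = 0.0272), and both rose. CD1A, CLEC9A, LAMP3, CCR7, CD207 and FCER1A were at 0. The part of these markers in the changes of the scavenger receptors was not tested.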

How the data were processed

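The deposited table of estimated counts per gene was used as the authors gave it, with whole values that rounding did not change. In another table the authors deposited, each gene has a signal (its count times 1 factor per library), a log2 ratio, a p-value, a q-value and a rank, which is a score by p-value; its header names TCC without the test. HISAT2 2.1.0 and StringTie 2.1.1 appear, without roles, among the submitters' processing notes. The sources used here do not give the genome build, annotation or strand use, so overlapping genes are uncertain.

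All 4 libraries were fitted with edgeR 4.0.16 in R 4.3.3 (TMM factors, filterByExpr by group, quasi-likelihood test, Benjamini-Hochberg adjustment at 0.05), without a block. The fit was checked on simulated counts by the size of the fold changes it returned, at a spread lower than in these data. Its power at the spread of these data is not reported here. Members and lists were chosen with earlier results of these data known. Text names the members and, per list, up to 4 called genes with the smallest p, the gene with the highest mean CPM and 1 called in the opposite direction. Some genes that this rule names are not reported here. Of 204 list genes, 203 matched by symbol. Transcript lengths came from GENCODE release 29. DESeq2 1.42.0 and limma 3.58.1 served as alternatives. The lot in the titles pairs the libraries, and deviations from group means correlated at 0.278 between libraries of the same lot. No label states that lots were separate cultures; p-values thus cover only library-to-library spread, part of which can be technical.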

Additional observations from a re-analysis of the deposited data

Results flagged for a closer look

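STAB1 had changes of opposite sign in the lots, each larger than 2-fold. With libraries at 0 set to 3 counts, its log2 ratio of PMA to untreated was 7.97 in lot 1 and −3.22 in lot 2. With 1 library per condition in each lot, the difference between the lots was not tested.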

How the results depend on the processing

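The number of scavenger receptors that rose was 3 to 5 over the 13 alternatives, and 0 fell except without PMA replicate 1, where 1 did. CD68 and OLR1 were called in each of the 13. Neither SCARB1 nor STAB1 was called in any. The log2 fold change of SCARB1 changed sign without untreated replicate 2 (0.21), or PMA replicate 2 (0.012), and ran from −0.29 to 0.21 with 1 library left out. That of STAB1 changed sign without PMA replicate 1 (−6.96) and ran up to 11.14; with the filter of 5 CPM it was not tested. With upper-quartile factors the median log2 fold change over tested genes was −0.17; relative to that, SCARB1 (−0.21) stayed near the median and no scavenger receptor changed its call.

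Over all genes, 705 rose and 332 fell, against 2127 and 1684 with DESeq2, 1149 and 636 with limma-voom, and 721 that fell with a filter of 5 CPM in 2 libraries. Leaving out 1 library gave 424 to 1830 that rose and 79 to 1085 that fell. With the lot as a block 591 rose and 244 fell. That block kept the call of every tested scavenger receptor. Of the genes in the partner lists, 21 rose and 1 fell. These were 55 and 2 with DESeq2, 35 and 2 with limma-voom, 32 and 2 with the filter of 5 CPM and 24 and 2 with the replicate block. Without a filter, with upper-quartile factors, with same-symbol entries summed, and with library sizes without abundant and mitochondrial genes, 2 fell in each. Leaving out 1 library gave 15 to 50 that rose and 1 to 3 that fell. For single named genes, 360 of 402 alternative values kept direction and call, 19 lost and 20 gained the call, and 3 changed sign. With 2 libraries per group and a coefficient of variation of 0.626 by edgeR, spread between libraries limits these results more than counting does.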

Other observations

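OLR1 lies in a cluster of C-type lectin genes. The nearest protein-coding gene on each side was called higher, as were 4.29% of all tested genes. Whether these changes are linked to that of OLR1 was not tested. CLEC7A, the nearest protein-coding gene on one side, was at 0 in both untreated libraries, against 15.9 and 19.2 CPM with PMA (adjusted p = 0.0224). CLEC7A passed the filter on low counts through the PMA group alone. GABARAPL1, an autophagy gene and the nearest on the other side, went from 3.13 and 2.57 to 34.2 and 39.1 CPM in lots 1 and 2 (3.68 ± 0.43, adjusted p = 0.0253), a call that was lost in 1 of 13 alternatives. TMEM52B, which overlaps OLR1 on the opposite strand, was at 0.427 CPM and 0 in the untreated libraries, against 6.25 and 4.09 CPM with PMA (adjusted p = 0.184), and without strand its reads cannot be told apart from those of OLR1. The protein-coding neighbours of SCARB2 and CD68 had no call: NUP54 beside SCARB2 was at 32.4 and 22 CPM without PMA, against 18.2 and 19.7 CPM with it (adjusted p = 0.485), and MPDU1 beside CD68 was at 20.4 and 49.8 and at 42.5 and 47.3 CPM (adjusted p = 0.723). The nearest protein-coding genes of MSR1, TUSC3 and FGF20, were at 0 in all 4 libraries, as were EN1 and C1QL2 beside MARCO.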
